A study of Mus musculus with 39 samples.

Results

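Fibro-adipogenic progenitors are the mesenchymal stromal cells of skeletal muscle. The 10 genes described here, Pdgfra, Dcn, Lum, Gsn, Ly6a, Mfap5, Pi16, Dpp4, Cd34 and Fbn1, are genes these cells are known to express, and they were found by symbol among the 55011 gene symbols of the deposited count table. All 10 were found. Levels are given in CPM, a gene's count relative to the total of its library.

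The study examined how IL-17A-producing gamma delta T cells bear on repair of mouse muscle. Hindlimb muscle was injured with cardiotoxin, a snake venom toxin that kills myofibres, and tibialis anterior was taken whole at days 1, 3, 7 and 14. Animals of the time course were wild-type or Tcrd-DTR, and both genotypes received diphtheria toxin by i.p. injection, so that the toxin is common to controls and to depleted animals. Tcrd-DTR mice are named for a diphtheria toxin receptor at the gene for the T cell receptor delta chain, and the toxin depletes their gamma delta T cells. There were 3 libraries per genotype and day, except 2 of Tcrd-DTR at day 7. A further day 7 set, with other treatments, had 2 libraries of wild-type muscle given PBS and 2 given recombinant IL-17A (rIL-17A), i.p. and i.m. after the same injury. Muscle satellite cells, the stem cells of muscle, were sorted from injured muscle at day 1 from toxin-treated wild-type and Tcrd-DTR mice, with 3 libraries each. Whole-muscle libraries started from 2 ng of RNA and sorted libraries from 1000 cells. The labels give no age, and no gate for the sort. These 33 libraries of 12 groups were used out of 39 libraries of 14 groups. The submitters describe the replicates as independent and biological, and p-values measure the spread between them.

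In resting muscle, fibro-adipogenic progenitors lie between the fibres, lay down the interstitial matrix and supply signals to satellite cells. After injury they divide and are later cleared, and where they persist they can become fibroblasts or adipocytes. PDGFRA and the surface antigen Sca-1, encoded by Ly6a, are the usual markers by which they are sorted. Dcn, Lum, Gsn, Mfap5 and Fbn1 encode proteins of the matrix or of the cytoskeleton that other stromal cells, such as tenocytes and mural cells, also make. Pi16 and Dpp4 mark a progenitor-like fibroblast state that is described in many tissues. Cd34 is shared with endothelium and satellite cells.

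Libraries held 2372139 to 10974862 counts. Myofibre marker genes summed to 20896 to 188999 CPM over the whole-muscle libraries, and satellite cell markers summed to 4897 to 6336 CPM over the sorted ones, against 189 to 873 CPM in whole muscle. Transcripts of olfactory and vomeronasal receptor genes, which have no known part in muscle repair, ranged from 92.1 to 2880 CPM in the time-course libraries (highest in 1 Tcrd-DTR library of day 1) and from 12.1 to 25.8 CPM in the PBS and rIL-17A libraries. In the tests, library sizes were scaled with edgeR's TMM factors, which ranged from 0.616 to 1.39 over the time course. CPM of the column total and the log2 changes of the tests therefore differ in scale. Without these factors the median log2 change of all genes was -0.74 from day 3 to day 7 in wild-type muscle, against 0.04 with them, and -1.19 against -0.22 in Tcrd-DTR muscle.

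In the GENCODE M21 annotation of GRCm38, the build of the counts, the genes are spread over 7 chromosomes. Pdgfra lies at chr5:75152292-75198215 on the plus strand, Ly6a at chr15:74994877-74998031 on the minus strand and Cd34 at chr1:194938819-194961279 on the plus strand. Dcn (chr10:97479609-97518143) and Lum (chr10:97565128-97572703) are neighbours on the plus strand, and share no exon with any other gene. Gsn (chr2:35256380-35307892, plus), Dpp4 (chr2:62330073-62412231, minus) and Fbn1 (chr2:125300594-125507993, minus) share a chromosome but lie far apart. Mfap5 lies at chr6:122505845-122529290 and Pi16 at chr17:29317680-29330593, both on the plus strand. Some exon bases are shared with an opposite-strand gene: 456 of Pdgfra with Gm42802, 222 of Pi16 with AC162182.1, 232 of Dpp4 with Gm13561 and 148 of Cd34 with Gm16897. The strand setting of the counting is not given in the sources used here, so reads from these bases cannot be told apart. Gm42802 had 0 counts over the 33 libraries, Gm13561 had 64 and Gm16897 had 215.

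The stretch of DNA just upstream of a gene's start was available from RefSeq (GRCm38.p6) for 6 of the 10 genes. Windows of 250 bases are shown for 3 of them: Pdgfra, which defines the cells, and Gsn and Dpp4, which fell together between days 1 and 3 in wild-type muscle. They contain no annotated exon. Capitals mark matches on either strand to 6 motifs. The windows lie at chr5:75152001-75152250 on the plus strand (Pdgfra), at chr2:35256109-35256358 on the plus strand (the first of 3 Gsn starts) and at chr2:62412232-62412481 on the minus strand (Dpp4), each written 5′ to 3′ along its gene.
Pdgfra: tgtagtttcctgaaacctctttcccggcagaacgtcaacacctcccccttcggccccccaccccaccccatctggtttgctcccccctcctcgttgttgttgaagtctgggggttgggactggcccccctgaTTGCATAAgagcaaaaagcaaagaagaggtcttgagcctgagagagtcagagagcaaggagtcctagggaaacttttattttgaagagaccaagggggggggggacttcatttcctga
Gsn: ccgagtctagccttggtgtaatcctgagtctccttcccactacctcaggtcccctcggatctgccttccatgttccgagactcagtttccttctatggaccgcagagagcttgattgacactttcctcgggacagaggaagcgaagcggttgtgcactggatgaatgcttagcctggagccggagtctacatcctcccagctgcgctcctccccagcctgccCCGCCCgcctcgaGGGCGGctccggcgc
Dpp4: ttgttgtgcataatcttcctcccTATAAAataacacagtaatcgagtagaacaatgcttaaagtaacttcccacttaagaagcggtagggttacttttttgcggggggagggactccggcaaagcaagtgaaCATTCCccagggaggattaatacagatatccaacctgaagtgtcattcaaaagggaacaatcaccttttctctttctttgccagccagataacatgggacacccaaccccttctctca
The Pdgfra window held 1 C/EBP match, 118 bases before the start. The Gsn window held 2 GC boxes, at 28 and 15 bases before the start, and the Dpp4 window held a TEAD match at 118 and a TATA box at 227 bases before it. For comparison, the same search was run over 32851 promoter windows of this length. The C/EBP motif, searched as TTGCNNAA, was in 9.56% of them. A GC box, searched as GGGCGG, was in 32.7% of the windows. The motif of TEAD factors, searched as GGAATG, was in 12.6% of them. The TATA box was searched as TATAAA and found in 12.4% of windows. AP-1 sites (TGANTCA) were in 6.75% of all windows and in none of the 3 shown. The RUNX motif, with the letters TGTGGT, was in 14.05% of all windows and in none of the 3 shown. No motif was found both in the Gsn window and in the Dpp4 window. A match of letters is not evidence of binding.

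The 10 genes span a wide range of abundance. Per kilobase of the longest transcript, Gsn stood highest in wild-type muscle at day 1, at 699.9 ± 80.4 CPM per kb (SD, n = 3). It was followed by Ly6a at 362 ± 34.4 and Dcn at 186 ± 27.5 CPM per kb. Cd34, Mfap5, Lum, Pi16, Fbn1 and Pdgfra came next, from 49.7 down to 7.19 CPM per kb, and Dpp4 was lowest at 2.6 ± 1.38. In that order the libraries of Lum overlapped those of Pi16, and those of Pi16 overlapped Fbn1; the other neighbours did not overlap. Dpp4 was last in all 10 whole-muscle groups, while the first place passed to Ly6a in wild-type muscle at day 3 (348 CPM per kb, overlapping Gsn at 308). Dcn led in Tcrd-DTR muscle at day 7 (144 CPM per kb, overlapping Ly6a at 121) and in PBS-treated muscle (223 CPM per kb, overlapping Lum at 147).

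The first question of the time course is how the genes moved with the days of repair. Over days 1, 3, 7 and 14, 9 of the 10 changed in wild-type muscle, all but Cd34 (adjusted p = 0.231), and 9 of 10 in Tcrd-DTR muscle, all but Pi16 (adjusted p = 0.0781). Both exceptions depended on the scaling: with library size alone, Cd34 passed in wild-type (adjusted p = 0.00223) and Pi16 in Tcrd-DTR muscle (adjusted p = 0.0111), and Pi16 also passed without the first Tcrd-DTR library of day 1 (adjusted p = 0.0422). The test is edgeR's quasi-likelihood F-test with Benjamini-Hochberg adjustment over 18264 genes, at an adjusted p under 0.05. Some calls were lost in other settings. In wild-type muscle, Dcn, Pi16 and Dpp4 did not pass without the third library of day 1 (adjusted p = 0.0502, 0.0886 and 0.103). Mfap5 did not pass there without the first or the third library of day 14 (largest adjusted p = 0.0647). In Tcrd-DTR muscle, Cd34 did not pass by DESeq2 (adjusted p = 0.0562). Many other genes moved as well: 53.7% of all tested genes passed the same test in wild-type and 56.2% in Tcrd-DTR muscle. In whole tissue, fewer cells of a type and less RNA per cell cannot be told apart.

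**Figure D1:**
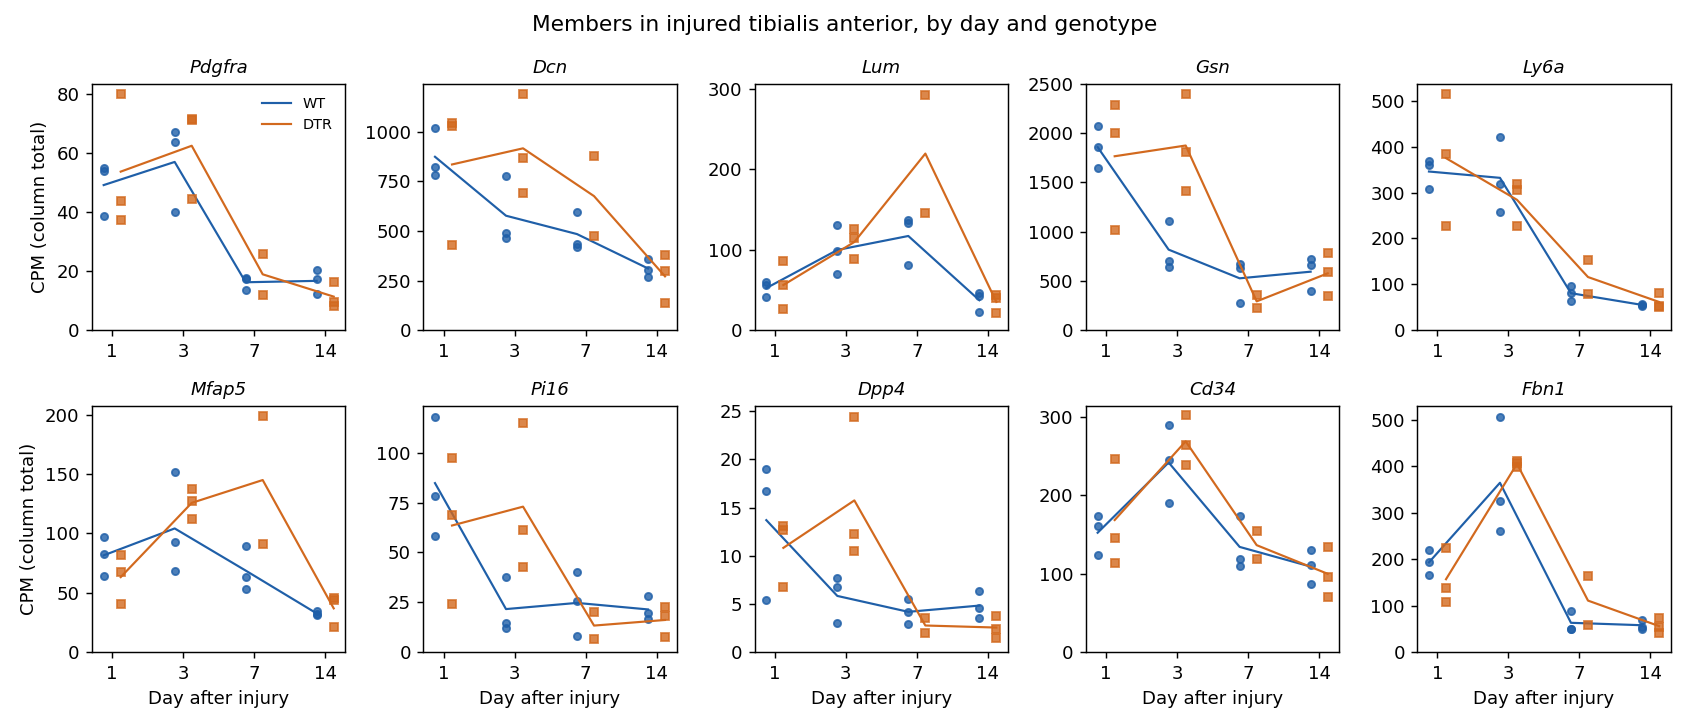
CPM of each gene (vertical axis, from 0) in injured tibialis anterior by day after injury (horizontal axis). Points are libraries, circles wild-type and squares Tcrd-DTR, and lines join group means; Lum and Mfap5 have their highest mean in Tcrd-DTR muscle at day 7, while Gsn, Pi16 and Dpp4 are lower in wild-type than in Tcrd-DTR libraries at day 3.

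Pdgfra encodes the receptor for PDGF ligands that defines these cells. In wild-type muscle it measured 38.6, 54.7 and 54.02 CPM (day 1), 67.1, 63.8 and 39.95 (day 3), 13.7, 17.2 and 17.8 (day 7) and 20.5, 12.3 and 17.3 (day 14). In Tcrd-DTR muscle the values were 37.2, 79.8 and 43.9, then 71.6, 71.3 and 44.4, then 11.9 and 25.9, and 9.44, 16.4 and 8.201 CPM. Every library of days 1 and 3 lay above every library of days 7 and 14. From day 3 to day 7 Pdgfra fell, with a log2 change of -1.02 ± 0.26 in wild-type muscle (± SE here and for each log2 change; adjusted p = 0.00196), a call held in all 12 settings tried. In Tcrd-DTR muscle the change was -0.75 ± 0.29 (adjusted p = 0.0428), and this call was lost in 4 of 11 settings.

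Ly6a, the gene for Sca-1, had the smallest p over time among the 10 genes in both genotypes. Wild-type libraries read 308, 369 and 361 CPM (day 1), 420.5, 318 and 258 (day 3), 64.4, 95.7 and 82 (day 7) and 57.8, 53.1 and 54.7 (day 14). Tcrd-DTR libraries read 227, 515 and 384, then 306, 319 and 228, then 79.3 and 153, and 52.8, 80.5 and 51.7 CPM. All libraries of days 1 and 3 were above all of days 7 and 14 in each genotype. In wild-type muscle the fall came from day 3 to day 7 (-1.25 ± 0.23 log2, adjusted p = 2.65e-05), with a further -0.67 ± 0.23 to day 14 (adjusted p = 0.0374) that 9 of 12 settings did not call. In Tcrd-DTR muscle the CPM of every day 7 library was below that of every day 3 library, while days 7 and 14 overlapped. With TMM factors the step from day 3 to day 7 was -0.33 ± 0.25 log2 (adjusted p = 0.3202), where the median over all genes was -0.22. With library size alone the step was -1.29 and passed (adjusted p = 8.81e-04). The step from day 7 to day 14 was -1.27 ± 0.25 log2 (adjusted p = 1.98e-04) and held in all 11 settings. Whether the earlier step is called thus depends on the scaling.

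Cd34 encodes a sialomucin of progenitor and endothelial surfaces. It read 124, 160.4 and 173 CPM in wild-type muscle (day 1), 289, 246 and 191 (day 3), 119, 174 and 109.6 (day 7) and 129.8, 111 and 86.5 (day 14). Tcrd-DTR values were 113, 246 and 146, then 239, 303 and 265, then 119 and 154, and 69.9, 134 and 95.9 CPM. Day 3 held the highest mean in both genotypes. The 1 step that passed was day 7 to day 14 in Tcrd-DTR muscle, at -0.82 ± 0.26 log2 (adjusted p = 0.0146), which 6 of 11 settings did not call. From day 3 to day 7 the change with TMM factors was -0.04 ± 0.23 log2 in wild-type and 0.00 ± 0.26 in Tcrd-DTR muscle. With library size alone Cd34 was lower in both, at -0.85 (adjusted p = 0.0078) and -0.98 (adjusted p = 0.00737). Endothelial markers moved at that step too, with 4 of 8 lower. Of all genes, 19% were called lower in wild-type and 18.4% in Tcrd-DTR muscle. The part of endothelial cells in the Cd34 values was not tested.

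Gsn, Pi16, Dpp4 and Dcn fell early in wild-type muscle. These 4 were the genes called from day 1 to day 3, all lower, where 9.36% of all genes passed in that direction. Gsn encodes gelsolin, which severs actin filaments. It read 1859, 1643 and 2069 CPM on day 1 and 1109, 643 and 699 on day 3, with no overlap. Later libraries read 277, 634 and 667 (day 7) and 726, 398 and 656 (day 14). The step to day 3 was -1.58 ± 0.32 log2 (adjusted p = 7.33e-04) and held in all 12 settings.

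Pi16 encodes a secreted peptidase inhibitor, and it showed the steepest early fall of the 10 genes. It read 78.1, 58.2 and 118 CPM (day 1), 37.8, 12.2 and 14.8 (day 3), 8.25, 40.3 and 25.6 (day 7) and 28.02, 16.9 and 19.4 (day 14). The step to day 3 was -2.35 ± 0.64 log2 (adjusted p = 0.0156), with no overlap between the days. Dpp4, a surface dipeptidase, read 5.41, 16.7 and 18.99 CPM on day 1 and 6.77, 7.67 and 3.07 on day 3, where 1 library of day 1 lay within the range of day 3. Its step was -1.61 ± 0.44 log2 (adjusted p = 0.00695). Later it read 4.12, 2.9 and 5.55 CPM (day 7) and 3.502, 4.63 and 6.38 (day 14), where 1 library of day 7 lay below the range of day 3 and the others within it. Without the third wild-type library of day 1, only Gsn of the 4 genes passed; without the second or the third of day 3, 2 did.

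Dcn encodes decorin, a small leucine-rich proteoglycan that binds collagen. It read 779, 820.03 and 1020.1 CPM (day 1), 777, 464 and 488 (day 3), 419.8, 596 and 436 (day 7) and 358, 269 and 305 (day 14). All day 1 libraries stood above all day 3 libraries, by a small margin. The step to day 3 was -0.997 ± 0.33 log2 (adjusted p = 0.0384), called in 6 of 12 settings. In the same step adipocyte markers also moved, with 3 of 6 lower, and myofibre markers, with 5 of 6 lower. Macrophage markers rose in 6 of 8, where 9.58% of all genes were called higher. Summed adipocyte markers ranged from 129.8 to 325 CPM at day 1 and from 16.1 to 107 CPM at day 3. Their part in the fall of the 4 genes was not tested.

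In Tcrd-DTR muscle none of these 4 genes was called from day 1 to day 3. Gsn read 1012, 2283 and 1999 CPM on day 1 and 1416, 2393 and 1811 on day 3, a change of -0.11 ± 0.32 log2. It then fell to 227 and 358 at day 7 (-1.71 ± 0.38 log2, adjusted p = 6.99e-04, held in all 11 settings) and stood at 351, 786 and 592 CPM at day 14. Every library of day 3 was above every library of day 7. Pi16 read 24.3, 97.3 and 68.9, then 42.8, 115 and 61.2, then 6.49 and 20.2, and 7.69, 22.8 and 18.04 CPM at days 1, 3, 7 and 14. Its libraries of day 3 all lay above those of day 7, and the test gave -1.496 ± 0.71 log2 (adjusted p = 0.114); with library size alone it was -2.44 and passed (adjusted p = 0.0152). Dpp4 read 6.72, 12.7 and 13.1, then 10.5, 24.4 and 12.3, then 1.99 and 3.55, and 2.45, 3.79 and 1.44 CPM. The fall of Dpp4 from day 3 to day 7 passed, at -1.52 ± 0.50 log2 (adjusted p = 0.0164).

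Fbn1 and Mfap5 belong to the microfibril, the scaffold of elastic fibres. Fbn1 encodes fibrillin-1. It read 166, 194 and 220.1 CPM in wild-type muscle (day 1), 508, 325 and 262 (day 3), 49.6, 89.8 and 50.7 (day 7) and 70.04, 53.7 and 50.7 (day 14). Tcrd-DTR libraries read 109, 224 and 139, then 407, 411 and 399.9, then 59.1 and 163, and 41.3, 73.8 and 54.1 CPM. Day 3 was highest in both genotypes, and its libraries lay above those of every other day. The rise to day 3 was the 1 call among the 10 genes in Tcrd-DTR muscle between days 1 and 3, at 1.18 ± 0.29 log2 (adjusted p = 0.00485; 8.49% of genes rose), and it held in all 12 settings. The fall to day 7 in wild-type muscle was -1.72 ± 0.29 log2 (adjusted p = 2.67e-05), also held in all 12. Fbn1 shares 2442 exon bases with the opposite-strand gene Gm9913; Gm9913 itself had 20 counts in the 33 libraries.

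Mfap5 encodes a microfibril-associated glycoprotein. Wild-type libraries read 64.5, 82.7 and 97.4 CPM (day 1), 151, 92.8 and 68.5 (day 3), 63.4, 89.2 and 53.6 (day 7) and 31.5, 34.6 and 31.9 (day 14). Tcrd-DTR libraries read 40.7, 81.4 and 67.5, then 128, 137 and 112, then 91.2 and 199, and 20.98, 44.3 and 45.5 CPM. Its day 14 libraries were below all of days 3 and 7 in both genotypes. In Tcrd-DTR muscle it rose from day 3 to day 7, with TMM factors, by 1.16 ± 0.33 log2 (adjusted p = 0.00636). The call was lost without TMM factors and without the second library of day 7. From day 7 to day 14 the change was -1.22 ± 0.31 log2 in wild-type (adjusted p = 0.00725) and -2.29 ± 0.34 in Tcrd-DTR muscle (adjusted p = 1.43e-05).

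Lum encodes lumican, a collagen-binding proteoglycan of the same family as decorin. Wild-type libraries read 41.3, 55.9 and 59.8 CPM (day 1), 130.4, 98.8 and 69.9 (day 3), 137, 133 and 80.8 (day 7) and 46.5, 42.8 and 22.5 (day 14). Tcrd-DTR libraries read 26.7, 85.9 and 55.8, then 115, 125 and 89.1, then 146 and 293, and 21.7, 40.5 and 43.3 CPM. Day 7 held the highest mean in both genotypes, and in Tcrd-DTR muscle both of its libraries were above all others. With TMM factors, Lum rose from day 3 to day 7 by 1.06 ± 0.35 log2 in wild-type (adjusted p = 0.0205) and by 1.97 ± 0.38 in Tcrd-DTR muscle (adjusted p = 3.35e-04). Neither rise passed when TMM factors were left out. The wild-type call held in 7 of 12 settings and was also lost when single libraries of day 3 or day 7 were left out. In CPM the wild-type libraries of these days overlapped. To day 14 it fell in both, with changes of -1.81 ± 0.37 log2 (adjusted p = 0.00142) and -2.97 ± 0.40 (adjusted p = 1.23e-05), and these calls held in every setting tried.

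Counted by step, the wild-type genes gave 1 higher (Lum) and 3 lower (Fbn1, Ly6a and Pdgfra) from day 3 to day 7, where 17.9% and 19% of all genes were called in those directions. From day 7 to day 14, 3 were lower (Lum, Mfap5 and Ly6a) against 13.2% of genes, and without the second wild-type library of day 7 this count was 1. In Tcrd-DTR muscle 2 were higher (Lum and Mfap5) from day 3 to day 7 against 17.1%, and 4 lower (Gsn, Dpp4, Fbn1 and Pdgfra) against 18.4%. Without the second library of day 3 or the first of day 7, 3 of these 6 passed. From day 7 to day 14, 7 of 10 were lower against 19.7% of genes, with none higher; by DESeq2 Gsn was called higher there (0.87 log2, adjusted p = 0.0483), and so it was without the first library of day 14. Among them were Pdgfra (-1.13 ± 0.31 log2, adjusted p = 0.00557) and Fbn1 (-1.31 ± 0.32, adjusted p = 0.00266). The median log2 change of the 10 genes there was -1.20, against 0.02 over all genes. Without the second Tcrd-DTR library of day 7, 3 of those 7 passed.

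The Dcn level of Tcrd-DTR muscle was 431, 1045 and 1027 CPM (day 1), 693, 1189 and 865 (day 3), 473 and 877 (day 7) and 136, 379 and 298 (day 14). All day 14 libraries were below all of day 7, and the step was -1.65 ± 0.37 log2 (adjusted p = 0.00147). The spread at day 7 was wide, since the second of its 2 libraries read higher than the first for each of the 10 genes.

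Other genes of the same biology were counted from fixed lists. Over time in wild-type muscle, 15 of 20 tested other fibro-adipogenic progenitor genes changed, 7 of 10 other small leucine-rich proteoglycan genes, 15 of 18 other microfibril and elastic fibre genes, 3 of 6 genes of PDGF ligands and receptors, and 7 of 11 genes for signals these cells are known to send. In Tcrd-DTR muscle the counts were 16 of 20, 6 of 10, 16 of 18, 4 of 6 and 6 of 11. Over all genes 53.7% and 56.2% passed. In both genotypes the counts of the short PDGF, signal and proteoglycan lists stood near or not far above these shares. From day 3 to day 7 in wild-type muscle, the microfibril list gave 5 higher and 9 lower of 18 (17.9% and 19% of all genes), with a median log2 change of -0.94 against 0.04 over all genes. Emilin2, an elastic fibre glycoprotein, fell (-2.47 ± 0.35 log2) and Ltbp3, which binds latent TGF-beta, rose by 1.58 ± 0.29. Among the signals, Csf1, a macrophage growth factor, fell at that step (-2.61 ± 0.28 log2), as did the chemokine Cxcl12 (-1.62 ± 0.20). The complement regulator Cd55 rose by 3.06 ± 0.32 in wild-type and 2.705 ± 0.33 in Tcrd-DTR muscle. Macrophage markers were lower at that step in 8 of 8 in both genotypes, and myofibre markers were higher in 6 of 6; their part was not tested.

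The second question is whether depletion of gamma delta T cells changed the genes on a given day. At day 1 none of the 10 was called, and 0% of the 18264 genes passed (0 genes, with 778 at an unadjusted p under 0.05 and 0 by DESeq2). All 10 genes overlapped between genotypes. Their log2 changes ranged from -0.63 for Pi16 to -0.04 for Cd34.

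At day 3 none was called either, and again 0% of all genes passed (0 genes by edgeR, with 873 at an unadjusted p under 0.05 and 1 by DESeq2). Even so, 4 of the 10 had an unadjusted p under 0.05, and all 4 were higher in Tcrd-DTR muscle. They were Gsn (1.23 ± 0.32 log2, adjusted p = 0.4403), Dpp4 (1.45 ± 0.44, adjusted p = 0.53), Pi16 (1.76 ± 0.63, adjusted p = 0.797) and Dcn (0.702 ± 0.33, adjusted p = 1). These are the genes that fell in wild-type muscle between days 1 and 3, and the wild-type libraries of day 3 enter both comparisons. The day 3 libraries did not overlap for Gsn, Dpp4 and Pi16. Here and in the other comparisons, a lack of overlap describes few libraries and is not a test. The share of all genes without overlap is not given. Summed adipocyte markers stood at 16.1 to 107 CPM in wild-type and 173 to 279 CPM in Tcrd-DTR libraries at day 3, also without overlap. Whether the 2 differences are related was not tested.

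At day 7, 1 of the 10 passed, Mfap5, which was higher in Tcrd-DTR muscle by 1.25 ± 0.33 log2 (adjusted p = 0.0405); 0.635% of all genes were called higher. Its libraries read 91.2 and 199 CPM against 63.4, 89.2 and 53.6 in wild-type, a narrow gap with no overlap. Lum followed with 146 and 293 against 137, 133 and 80.8 CPM, also without overlap, and a change of 1.07 ± 0.38 log2 (adjusted p = 0.122). Fbn1 (0.98 ± 0.31 log2, adjusted p = 0.0867) and Ly6a (0.73 ± 0.25, adjusted p = 0.0977) did not pass. Of 11 settings, Fbn1 passed in 3, Lum in 1 and Ly6a in 1. The Mfap5 call was lost in 6 of 11 settings, among them the fit without the second Tcrd-DTR library, where 0 of the 10 genes passed, and the fit with a replicate block.

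At day 14 none of the 10 was called, while 14 genes, 0.0767% of those tested, passed. All 10 overlapped between the genotypes. The test of genotype by time, which asks whether the course differs between genotypes, called 0 of the 10 and 112 genes in all (0.613%). Gsn and Dpp4 came nearest among the 10, each with an adjusted p of 0.136, followed by Mfap5 at 0.159. By unadjusted p, 6 of the 10 were under 0.05, as were 2471 of the 18264 genes tested.

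**Figure D2:**
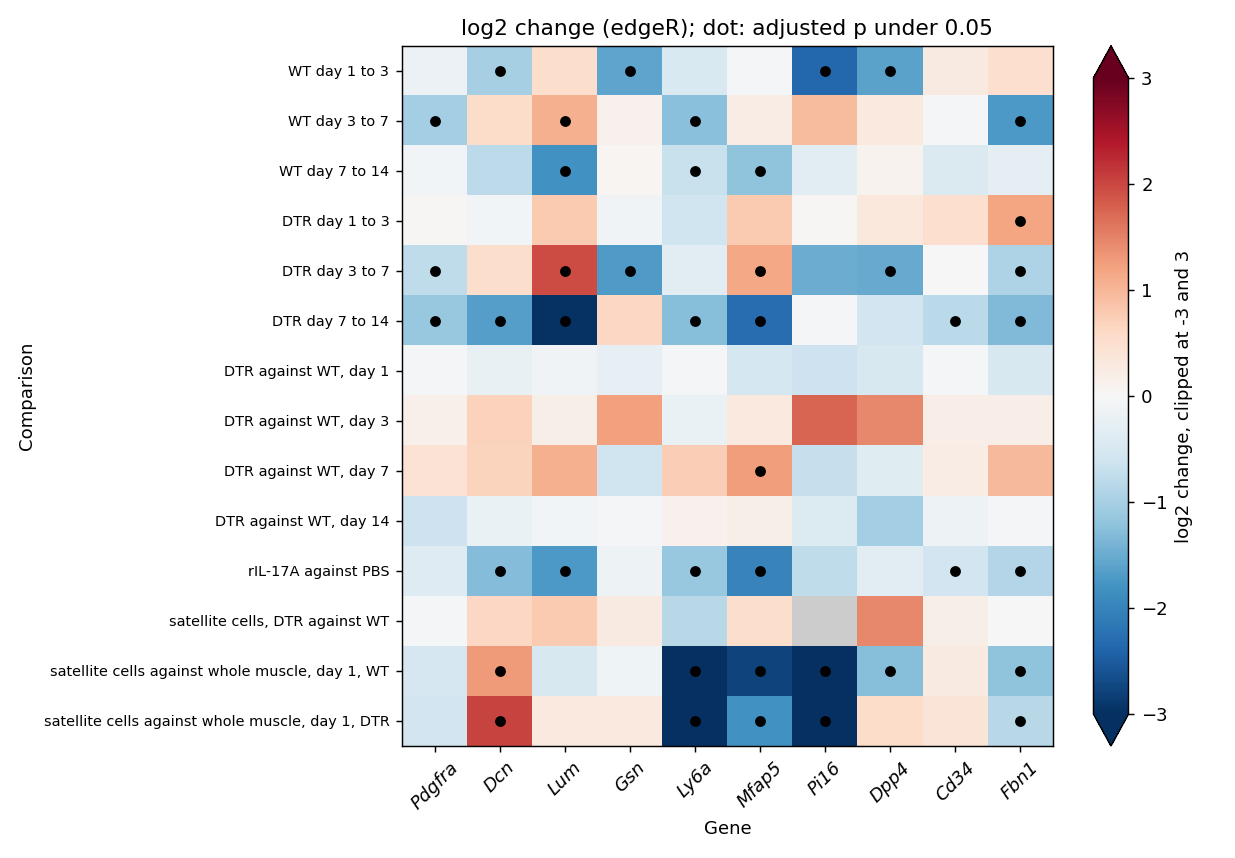
Log2 change of each gene (columns) in 14 comparisons (rows) as colour, clipped at -3 and 3. Black dots mark an adjusted p under 0.05; the 6 dots of rIL-17A against PBS are all on lower genes, and grey marks Pi16, not tested in the satellite cell comparison.

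The third question is what rIL-17A did to wild-type muscle at day 7. Of the 10 genes, 6 were lower than with PBS, none was higher, and all 10 log2 changes were below 0; 16.1% of the 12896 genes tested were called lower. The median log2 change of the 10 was -0.81, against 0.05 over all genes. The genes that fell were the 2 proteoglycans, the 2 microfibril genes, Ly6a and Cd34.

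Lum read 414 and 306 CPM with PBS and 105 and 136 with rIL-17A, a change of -1.73 ± 0.21 log2 (adjusted p = 1.57e-04). Mfap5 read 283 and 162 CPM with PBS against 54.05 and 68.2, a change of -2.01 ± 0.25 (adjusted p = 1.81e-04). Dcn read 1314 and 778 CPM with PBS against 398 and 539, a change of -1.304 ± 0.24 (adjusted p = 0.00172). For these 3, both PBS libraries stood above both rIL-17A libraries and the calls held in all 9 settings tried. Ly6a, at 128 and 96.7 against 47.99 and 66.1 CPM, changed by -1.13 ± 0.23 (adjusted p = 0.00267), a call that held in all 9 as well.

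Fbn1 read 168 and 106 CPM with PBS and 55.9 and 111 with rIL-17A, so that its libraries overlapped, with a change of -0.88 ± 0.29 log2 (adjusted p = 0.0313). Cd34 read 186 and 184 against 129 and 148 CPM without overlap, with a change of -0.57 ± 0.20 (adjusted p = 0.0392). The Fbn1 call was lost in 3 of 9 settings and the Cd34 call in 6 of 9. Gsn (-0.15 ± 0.20), Pdgfra (-0.38 ± 0.33), Pi16 (-0.75 ± 0.39) and Dpp4 (-0.32 ± 0.73) did not pass. Gsn read 408 and 298 CPM with PBS and 331 and 372 with rIL-17A, 2 overlapping ranges.

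Genes of the fixed lists moved in both directions. Of 20 other fibro-adipogenic progenitor genes tested, 7 were higher and 6 lower with rIL-17A, where 18.1% of all genes tested were called higher and 16.1% lower. Dpt, which encodes the matrix protein dermatopontin, fell (-1.63 ± 0.25 log2). The basement membrane collagen gene Col15a1 rose by 2.22 ± 0.31, the sialomucin gene Cd248 by 2.29 ± 0.36 and the tenascin gene Tnxb by 2.44 ± 0.44. Other small leucine-rich proteoglycan genes gave 0 higher and 4 lower of 9, led by Aspn, the asporin gene, at -1.796 ± 0.28. Microfibril genes gave 1 higher and 4 lower of 18, and PDGF ligands and receptors 0 higher and 3 lower of 6, with Pdgfb at -1.63 ± 0.32. Activated fibroblast genes gave 0 higher and 5 lower of 8, among them Cthrc1 (-2.35 ± 0.35) and Postn (-1.67 ± 0.32), both made by matrix-producing fibroblasts.

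Markers of other cells moved in the same libraries. Macrophage markers were lower in 4 of 8, with summed levels of 1441 to 1972 CPM with PBS and 576 to 714 with rIL-17A. Lyz2 was most of that sum, with means of 1146 CPM with PBS and 356 with rIL-17A. Csf1r (58 and 71.5 CPM) and Cd163 (2.64 and 6.09 CPM) had higher means with rIL-17A, and the means of the others were lower. Adipocyte markers summed to 154 to 169 against 51.3 to 68.4 CPM. Endothelial markers went the other way, at 359 to 378 against 485 to 535 CPM, with 4 of 8 higher and 1 lower. Their part in the fall of the 6 genes was not tested.

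**Figure D3:**
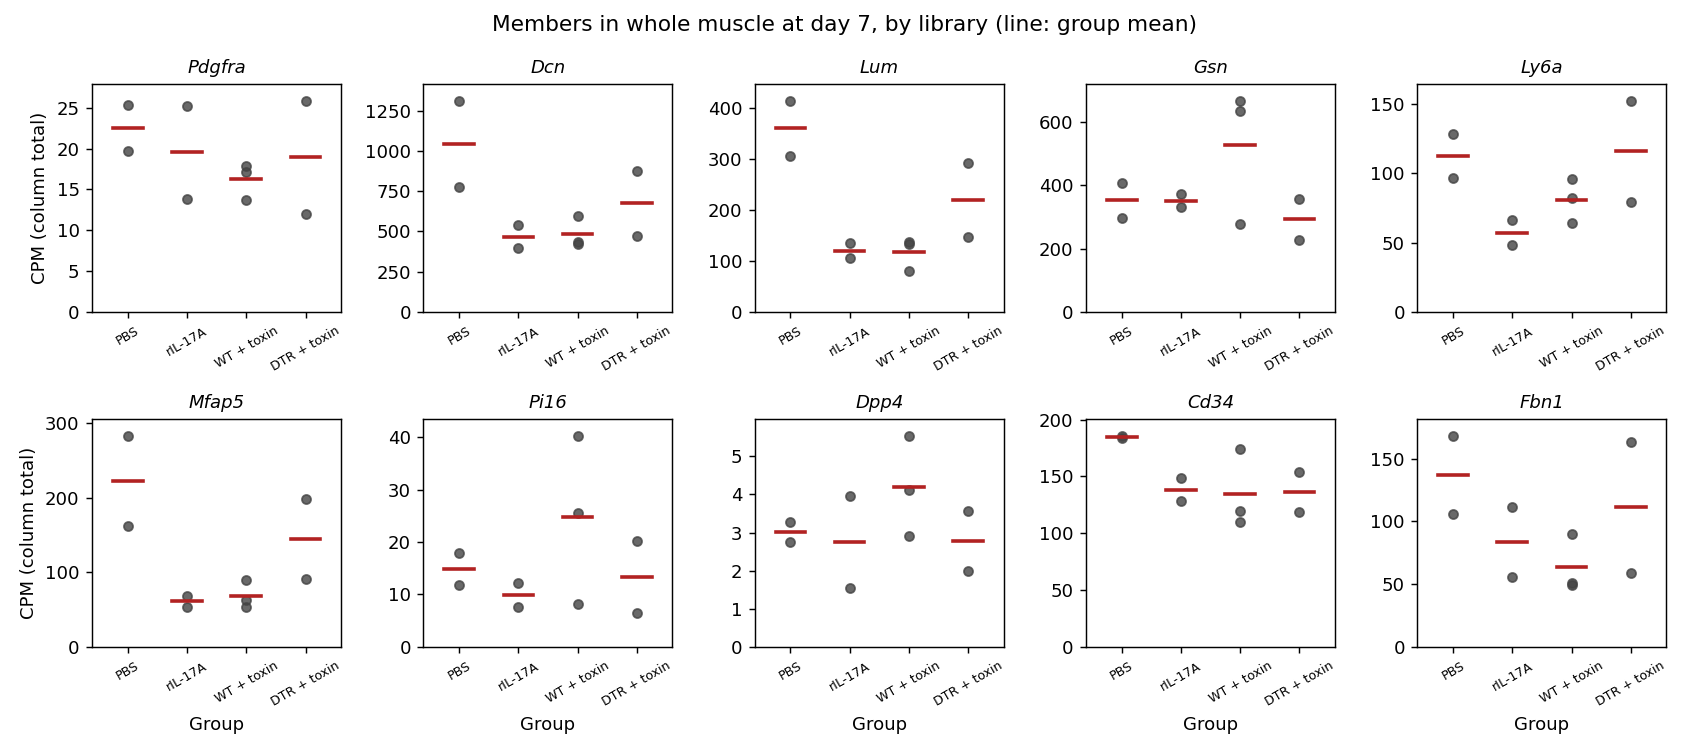
CPM of each gene (vertical axis, from 0) in whole muscle at day 7, by group (horizontal axis): PBS and rIL-17A, and the toxin-treated wild-type (WT + toxin) and Tcrd-DTR (DTR + toxin) groups of the time course. Points are libraries and lines group means; for Dcn, Lum and Mfap5 both PBS libraries lie above both rIL-17A libraries.

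The toxin-treated wild-type muscle of day 7 had a different treatment, and its values are set beside these without a comparison. Lum stood at 360.1 ± 76.9 CPM with PBS and 120.3 ± 21.7 with rIL-17A (SD, n = 2 each), and at 117 ± 31.5 in toxin-treated wild-type muscle (n = 3). Mfap5 stood at 222 ± 86.04, 61.1 ± 9.98 and 68.7 ± 18.4 CPM, and Dcn at 1046 ± 379, 468 ± 100.01 and 484 ± 97.2 CPM. Ly6a stood at 112 ± 22.2, 57.03 ± 12.8 and 80.7 ± 15.7 CPM, and Fbn1 at 137 ± 44.4, 83.5 ± 39.02 and 63.4 ± 22.9. Cd34 stood at 185 ± 1.28, 138 ± 13.9 and 134 ± 34.8 CPM, and Gsn at 353 ± 78.1, 351 ± 28.8 and 526 ± 216. Pi16 stood at 14.8 ± 4.4, 9.85 ± 3.17 and 24.7 ± 16.03 CPM, and Pdgfra at 22.5 ± 3.97, 19.5 ± 8.06 and 16.2 ± 2.25. Dpp4 stood at 3.03 ± 0.374, 2.76 ± 1.7 and 4.19 ± 1.32 CPM.

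The fourth question is how the genes read in satellite cells sorted at day 1, whose whole-muscle counterparts are the day 1 groups. Sorting and starting material differ between the 2 kinds of library. In wild-type, 1 of the 10 was higher in satellite cells (Dcn, where 26.9% of 14562 genes were higher) and 5 were lower (31.6%). In Tcrd-DTR mice 1 was higher (Dcn, 25.8%) and 4 were lower (31.1%).

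Ly6a was near 0 in the sorted cells, at 2.19, 1.91 and 2.19 CPM in wild-type and 0.702, 2.74 and 0.166 in Tcrd-DTR libraries, against 308, 369 and 361 CPM in wild-type whole muscle. The log2 change was -7.703 ± 0.42 in wild-type (adjusted p = 2.52e-09) and -8.57 ± 0.45 in Tcrd-DTR (adjusted p = 1.85e-09). Pi16 had 7 counts in all over the wild-type and 9 over the Tcrd-DTR satellite libraries, at 0.183, 1.15 and 0 CPM in the former and 0.702, 0.912 and 0 CPM in the latter. Its log2 changes were -7.87 ± 0.76 (adjusted p = 3.89e-06) and -7.11 ± 0.74 (adjusted p = 7.70e-06). Both genes lay below every whole-muscle library of day 1, by a wide gap.

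Mfap5 read 13.2, 18.9 and 13.7 CPM in wild-type and 18.6, 14.95 and 31.9 in Tcrd-DTR satellite cells, with log2 changes of -2.77 ± 0.28 (adjusted p = 2.81e-07) and -1.82 ± 0.27 (adjusted p = 2.12e-05). Fbn1 read 105, 101 and 114 CPM in wild-type and 92.7, 114 and 112 in Tcrd-DTR, with changes of -1.21 ± 0.19 (adjusted p = 2.66e-05) and -0.84 ± 0.19 (adjusted p = 8.98e-04). Dpp4 passed in wild-type alone, at -1.27 ± 0.38 log2 (adjusted p = 0.00891), against 0.56 ± 0.37 in Tcrd-DTR; the difference between genotypes was not tested, and the call was lost without TMM factors and without the third library of wild-type muscle. In contrast to these, Dcn was well above whole muscle, at 3136, 2274 and 2727 CPM in wild-type satellite cells, where the test gave 1.28 ± 0.28 log2 (adjusted p = 7.18e-04). In Tcrd-DTR satellite cells Dcn read 3161, 4284 and 5054 CPM, higher by 2.03 ± 0.28 (adjusted p = 1.02e-05). The lowest satellite library exceeded the highest whole-muscle library of day 1 in both genotypes, and the calls of Ly6a, Pi16, Mfap5, Fbn1 and Dcn held in all 12 settings of each genotype. Gsn, Cd34, Pdgfra and Lum did not pass in either genotype, though with library size alone Cd34 was called higher in both (0.62 and 0.66 log2, adjusted p = 0.032 and 0.0241). Wild-type satellite cells held 2028, 1903 and 2614 CPM of Gsn, 254, 252 and 195 of Cd34 and 37.5, 55.6 and 40.04 of Pdgfra.

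Markers of other cells in the sort were low for endothelium, at 14.1 to 21.03 CPM in wild-type and 16.2 to 26.5 in Tcrd-DTR satellite libraries, against 504 to 646 in wild-type whole muscle. Macrophage markers summed to 11.9 to 16.7 and 10.1 to 19.1 CPM. Tenocyte markers were the exception, at 10692 to 14031 CPM in wild-type and 9789 to 20561 in Tcrd-DTR satellite libraries against 1029.7 to 1203 in wild-type whole muscle. Thbs4, a thrombospondin gene, was most of that sum. Of the 6 tenocyte markers 5 were higher in each genotype, and of 8 satellite cell markers 8. Whether the Dcn of the sort comes from satellite cells or from other cells cannot be told apart.

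The depleted and wild-type satellite cells gave no call among the 9 genes tested, and 0% of 12081 genes passed (719 at an unadjusted p under 0.05, and 7 by DESeq2). Dpp4 read 21.2, 16.2 and 21.7 CPM in Tcrd-DTR and 5.67, 9.94 and 6.18 in wild-type satellite cells, without overlap. Its log2 change was 1.44 ± 0.28 (adjusted p = 0.66). Lum read 69.3, 93.2 and 84.7 against 55.9, 49.9 and 37.7 CPM, without overlap (0.79 ± 0.19 log2, adjusted p = 0.699), and Dcn followed at 0.62 ± 0.20 log2 (adjusted p = 0.794). Without the filter on low counts, Dpp4 (adjusted p = 0.00343), Lum (adjusted p = 0.0129) and Dcn (adjusted p = 0.00855) were called higher. Pi16 had too few counts to be tested.

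**Figure D4:**
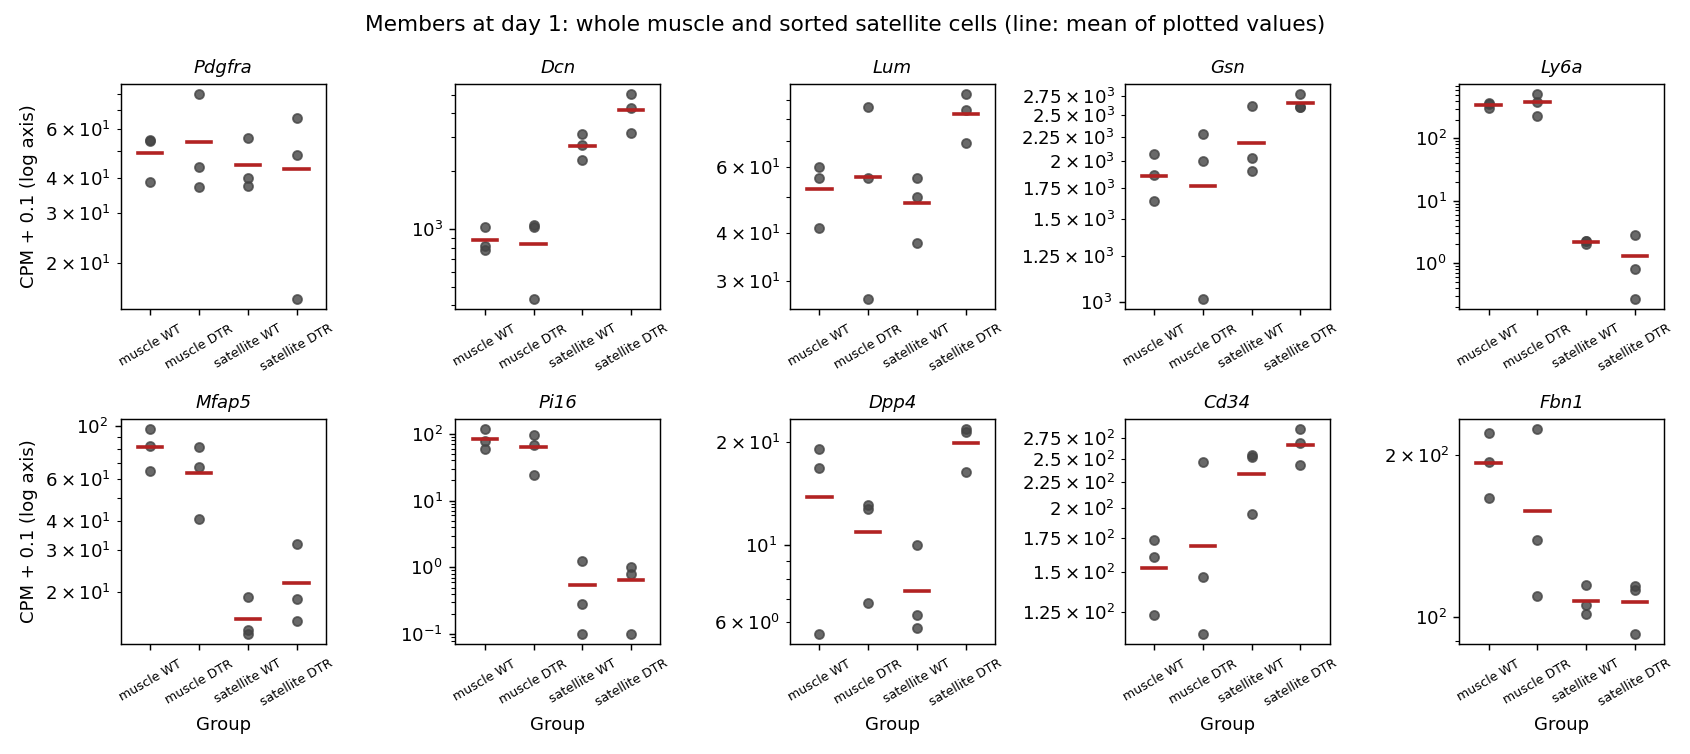
CPM plus 0.1 of each gene on a log vertical axis at day 1 in wild-type and Tcrd-DTR whole muscle and in satellite cells sorted from each (horizontal axis). Points are libraries and lines the mean of the points; Ly6a and Pi16 are far lower in satellite cells, and Dcn is higher.

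Over the 23 time-course libraries, the genes moved together to different degrees. Of 45 pairs, the median Pearson correlation of log2 CPM was 0.711, ranging from -0.0933 (Lum with Gsn) to 0.950 (Pdgfra with Ly6a), as a description over libraries that share days and depth. Gsn and Pi16 correlated at 0.935. Pdgfra and Fbn1 correlated at 0.916, and Cd34 and Fbn1 at 0.917. Lum was tied most closely to Mfap5, at 0.858. After the group means were taken out, so that only the spread among libraries of one group and day remained, the median was 0.736 (0.322 to 0.940), and Gsn with Pi16 stood highest. The deviations within groups include differences of library makeup, and these were not separated.

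**Figure D5:**
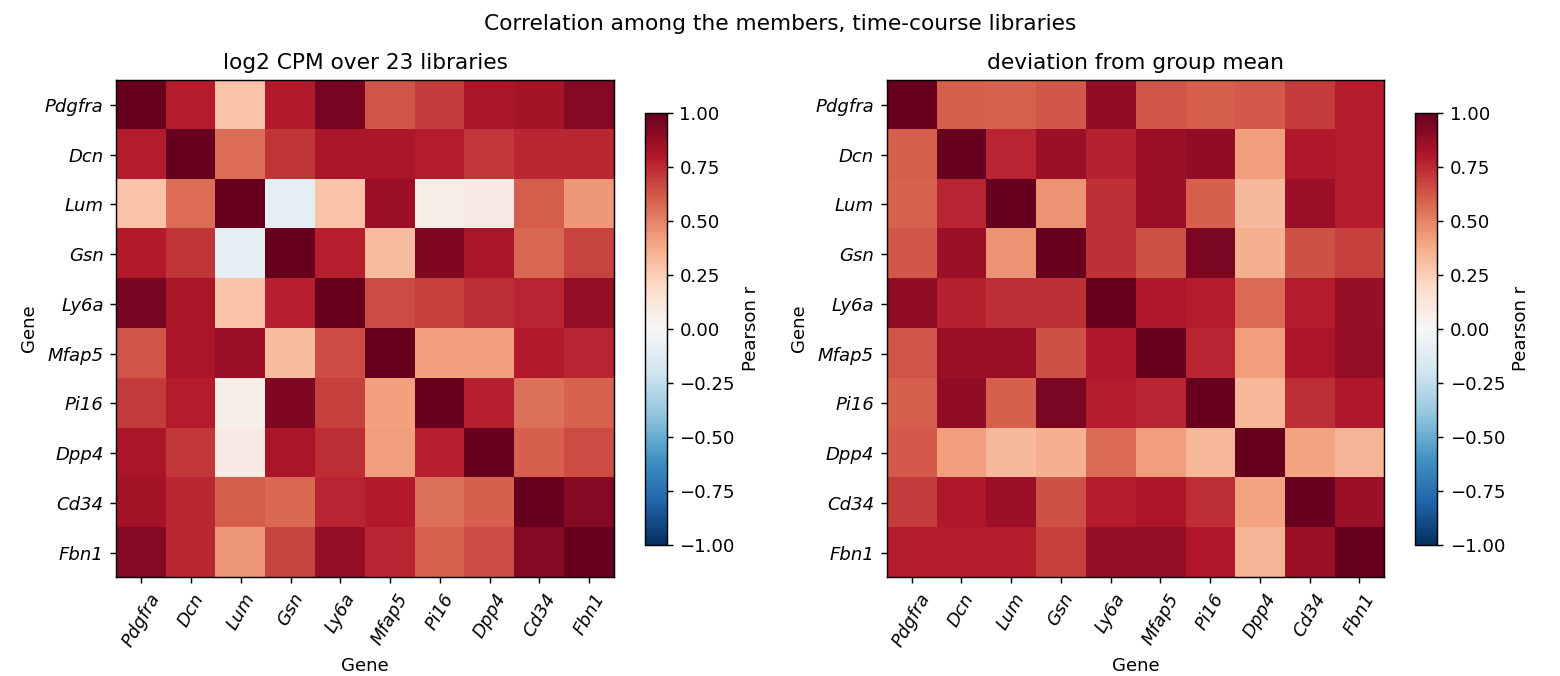
Pearson correlation (colour, from -1 to 1) between each pair of the 10 genes over 23 time-course libraries: left, log2 CPM; right, deviation of log2 CPM from the group mean. Lum is pale against Gsn, Pi16 and Dpp4 on the left, and the pairs on the right are mostly red.

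The genes outside the 10 whose log2 CPM ran most like the mean of the 10 over these libraries, among 10515 genes with a mean of at least 5 CPM, were Ecm1 (r = 0.956), Loxl1 (0.953), Ntn1 (0.950), Pcolce (0.948), Fn1 (0.948), Serpinf1 (0.938), Lox (0.938) and Lyz1 (0.938). Ecm1 had 154 CPM in wild-type muscle at day 3 and 25.5 at day 14. The nearest neighbours of single genes were Gab2 for Pdgfra (0.968), Medag for Ly6a (0.985), Serping1 for Dcn (0.943), Cthrc1 for Lum (0.935) and Cpxm1 for Mfap5 (0.948). Adgrd1 was nearest to Gsn (0.960), Cyp2f2 to Pi16 (0.924), C3 to Dpp4 (0.863), Sptbn1 to Cd34 (0.941) and Arhgdib to Fbn1 (0.976). These are likenesses over 23 libraries.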

How the data were processed

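Whole injured muscle and sorted satellite cells of mice were measured by RNA-seq in 33 libraries. The authors deposited raw counts per gene, made with STAR 2.7.3a and featureCounts of Subread 2.0.0 on mm10, per the submitters' processing notes; no source used here gives the strand setting or annotation. Gene models for lengths and overlaps are GENCODE M21 on the same build. The submitted counts were tested with edgeR 4.0.16 in R 4.3.3 (quasi-likelihood F-test, robust, TMM, filterByExpr by group, Benjamini-Hochberg adjusted p under 0.05) on all genes: the 23 time-course libraries in one fit, the 4 rIL-17A and PBS libraries in another, and the satellite libraries alone and with day 1 muscle in 2 more. DESeq2 1.42.0 was an alternative. Standard errors were derived from the F statistic. The scripts were tested on simulated data. Levels are CPM of the column total. The 10 genes and the lists were chosen with earlier results of these data known; all 10 genes, and up to 4 called genes per list with the smallest p, are named. Alternatives were other size factors, library size alone, no low-count filter, DESeq2, a replicate block, own libraries alone and each library left out.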

Additional observations from a re-analysis of the deposited data

Results flagged for a closer look

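Vg6+ T cells, gamma delta T cells sorted from the colonic lamina propria (Vg6.C-LP) or from injured muscle at day 3 (Vg6.Muscle-d3), with 3 libraries each, enter no comparison here. Several of the 10 genes had more than 3 counts summed over the libraries of a group, which is more than a count of 0 allows. Some of these sums were low, at 4 counts for Dcn and 7 for Mfap5 in the muscle libraries and 7 for Cd34 in the colon libraries. Olfactory and vomeronasal receptor genes summed to a mean of 217 CPM in the colon and 431 CPM in the muscle libraries. Whether the low levels come from the T cells was not tested. Ly6a, which T cells also express, stood at 226 CPM in the colon libraries and 47.6 in the muscle libraries, and Gsn at 36.0 and 31.4 CPM. Dcn stood at 2.37 and 0.255 CPM, Fbn1 at 0.677 and 0.701, and Cd34 at 0.570 and 1.00 CPM. Dpp4 stood at 2.86 CPM in the colon libraries, where single libraries ranged from 0.178 to 6.62 CPM. In the muscle libraries Pdgfra stood at 0.551, Mfap5 at 0.434 and Pi16 at 1.27 CPM. These levels were not tested.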

How the results depend on the processing

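Most calls of single genes kept direction and side of the threshold; the steps and the day 7 genotype difference depended most on single libraries. In wild-type muscle from day 1 to day 3, 4 genes were called, against 2 with library size alone and 2 without the low-count filter, and 1 to 4 when a library was left out; from day 7 to day 14 leaving out a library gave 1 to 3. In Tcrd-DTR muscle from day 1 to day 3, 1 gene was called, against 2 with DESeq2 size factors, 2 with library size alone, 3 without the filter, 2 by DESeq2 and 2 with its own libraries alone, and 1 to 2 with a library left out. From day 3 to day 7, where 6 were called, leaving out a library gave 3 to 5, and from day 7 to day 14 it gave 3 to 7, against 4 with library size alone and 3 with its own libraries alone. For the genotypes at day 7, where 1 gene was called, library size alone gave 0, no filter 3, the replicate block 0, its own libraries alone 0 and a left-out library 0 to 3. Genotype by time gave 4 without the filter, 1 by DESeq2 and 0 to 1 with a library left out. Satellite cells of the 2 genotypes gave 3 without the filter. Cd34 changed sign: from day 3 to day 7 in wild-type, where it was -0.04, leaving out a library gave -0.333 to 0.101 and library size alone -0.85, which passed (adjusted p = 0.0078). In Tcrd-DTR, where it was 0.00, it was -0.0493 with DESeq2 size factors, -0.977 with library size alone (adjusted p = 0.00737), -0.194 without the filter, -0.0518 by DESeq2, -0.0423 with the replicate block and -0.146 to 0.0947 with a library left out. Where a left-out library leaves 1 in its group, that one is assumed to vary like the others. The cause was not tested.

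Over all genes, the day 7 genotype comparison called 367 genes, against 859 by DESeq2, 606 with library size alone, 137 with the replicate block and 92 with its own libraries alone. Day 14 called 14, against 66 by DESeq2, 55 without the filter, 36 with the block and 80 alone. Genotype by time called 112, against 490 by DESeq2, 519 without the filter and 209 with library size alone. With a library left out, day 7 called 22 to 729 genes, day 14 called 2 to 47, genotype by time 21 to 236 and day 3 up to 14. From day 7 to day 14 the left-out fits fell as low as 1879 of 3164 genes in wild-type and 3027 of 6276 in Tcrd-DTR muscle, from day 3 to day 7 to 4095 of 6490 and from day 1 to day 3 to 1671 of 2620 in Tcrd-DTR muscle, and with rIL-17A to 2266 of 4403. Day 1 called 17 without the filter, day 3 called 34 without it and 8 with the block, and satellite cells 101 without the filter. Same-numbered libraries of compared groups deviated together with correlations from -0.0970 to 0.284, and on no day were all above 0.1. With so few libraries per group, these values cannot exclude a pairing by number. The count columns of the satellite libraries also carry other numbers than the library titles used here. The replicate block moved the day 7 Mfap5 call, and the Cd34 call with rIL-17A. Pi16 had 7 and 9 counts over the satellite libraries of the 2 genotypes, which limits its values there.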
